A study of Rattus norvegicus with 34 samples.

Results

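The genes of cardiac calcium cycling make and empty the calcium store that drives each heartbeat, and 9 of them were followed here. They are Atp2a2, Pln, Ryr2, Casq2, Hrc, Trdn, Cacna1c, Slc8a1 and Camk2d. They were chosen by name, and each gene was read by its probe with the highest average over the 34 arrays. A probe was present for 8 of the 9, of 13337 genes with a symbol on the array. Pln had no probe and was not analysed here. Ryr2 had 4 probes and the other 7 genes 1 each, 11 in all.

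In a cardiomyocyte, the L-type channel Cacna1c admits calcium with each action potential, and this opens the ryanodine receptor Ryr2 in the membrane of the sarcoplasmic reticulum, from which the bulk of the calcium is released. Casq2 binds calcium inside this store, Trdn ties it to the release channel, and Hrc is a further calcium-binding protein of the lumen. Relaxation follows when the pump SERCA2, encoded by Atp2a2, returns calcium to the store under the restraint of Pln, while the exchanger Slc8a1 moves the rest out of the cell, and the kinase Camk2d phosphorylates both Ryr2 and Pln.

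The 17 female Sprague-Dawley rats of the study received a single intraperitoneal dose of 12 mg/kg doxorubicin (DOX), an anthracycline used against cancer, or saline, and were sacrificed after 48 h. Their age is not given in the sources used here. RNA of the left ventricle and of peripheral blood mononuclear cells (PBMC) was amplified and hybridized to Illumina RatRef-12 BeadChips, which carry 22523 probes. Each tissue had 8 sets of deposited values labelled saline and 9 labelled DOX, here called arrays, as many as the study had rats in each group. Some rats had repeat arrays, and how these enter the deposited values is not stated in the sources used here. Values are log2 intensities relative to the median of the probes not expressed on the same array, so that 0 is the level of background and a step of 1 is a 2-fold change.

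Several facts about the arrays bear on every value. The median of the expressed genes lay between 1.32 and 1.79 on the heart saline arrays and between 0.222 and 0.701 on the heart DOX arrays (two-sided exact permutation test, p = 4.11e-05, the smallest that 8 against 9 arrays can give). The deposited numbers also came at 2 precisions. Counted over all 22523 probes, an array of the saline hearts held 22196 to 22417 different values, and one of the DOX hearts 2826 to 4802. Treatment and the way in which these groups of arrays were processed therefore cannot be told apart in the heart. In the PBMC, the arrays with coarse values carried the labels saline 1 to 8 and DOX 1, and those with fine values DOX 2 to 9. The study's list of changed genes follows this split, with the first set as its DOX side and the second as its control side, so that its side differs from the label for 16 of the 17 PBMC arrays and for 0 of the 17 heart arrays. Which grouping is right is not settled here, and PBMC results are given both ways. The averages of the cardiomyocyte, T cell, B cell and leukocyte markers went with the labelled tissues, and those of the endothelial and monocyte markers did so less clearly. Of the 10 cardiomyocyte markers 9 had a probe, and all 9 lay above the background range on every heart saline array, whereas their average level on a PBMC array was −0.06 to 0.06. The 6 T cell markers averaged 2.08 to 5.98 on the PBMC arrays and −0.07 to 0.23 on the heart arrays, the 2 B cell markers 0.79 to 4.77 and −0.09 to 0.18, and the leukocyte marker Ptprc 0.43 to 6.51 and −0.05 to 0.43. Among the T cell markers, Cd4 averaged 0.07 on PBMC and 0.20 on heart arrays labelled saline, and 1.91 and −0.08 on those labelled DOX. The endothelial markers averaged 1.21 on PBMC and 2.19 on heart arrays labelled saline, and 1.93 and 0.51 on those labelled DOX. The monocyte marker Cd14 averaged 0.91 and 0.82 on saline arrays, and 1.34 and 0.14 on DOX arrays. Ptprc averaged 1.70 on the arrays labelled saline and 5.61 on those labelled DOX, or 1.66 on the DOX side of the list and 6.15 on its control side, and the platelet markers averaged 5.50 and 4.95 by label, or 5.16 and 5.26 by side. The PBMC arrays labelled saline 6 and DOX 1 stood apart, with correlations of 0.590 to 0.837 with the other 7 coarse arrays against 0.83 to 0.98 among those 7.

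Atp2a2, Casq2 and Ryr2 bracket the range of responses in the heart, and their promoters are shown for that reason: the pump had the largest decrease, Casq2 was lower as well, and Ryr2 was the one gene of the 7 past the expression filter without a lower value. Each is 250 bases before to 50 after the start of the gene in RefSeq on the rat build GRCr8, all 3 on the plus strand, at chr12:39733269-39733568, chr2:192214306-192214605 and chr17:63081277-63081576. Capitals mark the GC box GGGCGG, the E-box CANNTG and the MEF2 motif, searched on both strands.
Atp2a2: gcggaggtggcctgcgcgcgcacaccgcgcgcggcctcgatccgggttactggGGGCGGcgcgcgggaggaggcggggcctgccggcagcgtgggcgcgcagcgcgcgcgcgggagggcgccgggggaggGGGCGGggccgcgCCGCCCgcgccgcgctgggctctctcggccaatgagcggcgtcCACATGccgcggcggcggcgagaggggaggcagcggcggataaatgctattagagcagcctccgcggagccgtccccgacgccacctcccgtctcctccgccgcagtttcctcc
Casq2: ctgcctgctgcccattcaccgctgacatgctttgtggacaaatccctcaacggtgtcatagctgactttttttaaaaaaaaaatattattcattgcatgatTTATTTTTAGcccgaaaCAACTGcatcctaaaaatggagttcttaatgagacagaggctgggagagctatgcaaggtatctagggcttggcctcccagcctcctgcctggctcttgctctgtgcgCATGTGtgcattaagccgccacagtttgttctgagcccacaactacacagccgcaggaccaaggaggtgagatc
Ryr2: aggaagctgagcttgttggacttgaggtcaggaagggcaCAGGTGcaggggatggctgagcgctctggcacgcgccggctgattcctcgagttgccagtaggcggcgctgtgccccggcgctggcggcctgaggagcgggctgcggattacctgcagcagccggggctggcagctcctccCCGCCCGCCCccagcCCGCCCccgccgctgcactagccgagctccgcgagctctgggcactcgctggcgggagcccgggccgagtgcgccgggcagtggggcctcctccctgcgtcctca
The promoter of Atp2a2 is 79.0% G and C and that of Ryr2 73.0%, against 47.7% for Casq2 and a median of 51.7% over 33469 promoters. Atp2a2 and Ryr2 each hold 3 copies of GGGCGG, of which 2 overlap in Ryr2, and this motif is in 33.1% of all promoters of this length. Casq2 holds none of them and has a match to MEF2 from −149 to −140 relative to the start, a motif found in 3.3% of all promoters and in 1 of the 9 calcium cycling genes. An E-box is in 7 of the 9 and in 72.1% of all promoters. The letters GATA, searched too but not marked, are in 6 of the 9 and in 60.5% of all promoters. They occur in Atp2a2 from −26 to −23 and in Casq2 from −73 to −70. Neither TATAAA (14.2% of all promoters) nor the CArG box (1.6%) was found in any of the 9, and the M-CAT motif CATTCC (14.2%) was found in Cacna1c alone. Atp2a2 and Ryr2 thus shared a GC-rich promoter with the GGGCGG motif, as did Camk2d (74.7% G and C, 3 copies). This motif was in 3 of the 9 genes. For Slc8a1, Camk2d, Trdn and Cacna1c the promoter sequence is not placed at the outer end of the gene given here. That of Slc8a1, at chr6:19023309-19023608, lies well inside the gene. The counts over the 9 genes therefore mix different kinds of start. A match of letters is a description and does not show that a factor binds.

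Of the 7 calcium cycling genes that passed the expression filter, 5 were lower in the hearts labelled DOX and none was higher (limma, adjusted p under 0.05 and a change over 2-fold). Trdn, with an average of 0.210 over all arrays against a limit of 0.1524, passed the filter only through the saline hearts. Camk2d, with an average of 0.171, passed through the saline hearts and the fine PBMC arrays. The filter thus built in or favoured their lower values on DOX hearts, and nothing is read from their part in these counts. At an unadjusted p under 0.05 with no fold limit, 6 were lower and 1, Ryr2, was higher, where 5860 of all 6760 genes passed in either direction. Over all 6760 genes tested, 48.2% were called lower and 1.36% higher, and with 7 genes the difference between these shares is not read as a result. Their median log2 fold change was −1.28 and that of all genes −0.94. The log2 intensities of 6 of the 7 did not overlap between the groups, with every DOX array lower, as held for 63.4% of all genes. In whole tissue, fewer cells of a type and less RNA per cell cannot be told apart. Other cell types moved too: the average level of the cardiomyocyte markers was 6.64 to 6.96 on saline and 3.92 to 5.14 on DOX arrays, that of 6 fibroblast markers 3.13 to 4.84 and 0.71 to 2.06, and that of 3 endothelial markers 2.0 to 2.47 and 0.06 to 1.17. The 2 smooth muscle markers averaged 0.58 to 1.35 on saline and −0.06 to 0.13 on DOX arrays, the 3 platelet markers 0.85 to 2.08 and 0.14 to 0.57, the monocyte marker with a probe 0.52 to 1.62 and 0.04 to 0.24, and the 3 red cell markers 1.15 to 1.77 and 0.55 to 1.49. Of the 9 cardiomyocyte markers 8 stayed above the background range on every DOX array. Some markers ran against the average of their list. The cardiomyocyte marker Myl2 averaged 3.71 on saline and 4.74 on DOX hearts, and the endothelial marker Cdh5 0.07 and 0.43. The red cell marker Slc4a1 averaged 0.375 and 0.638, and Alas2, within background, 0.02 and 0.08. The part of these cell types in the result was not tested.

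**Figure D1:**
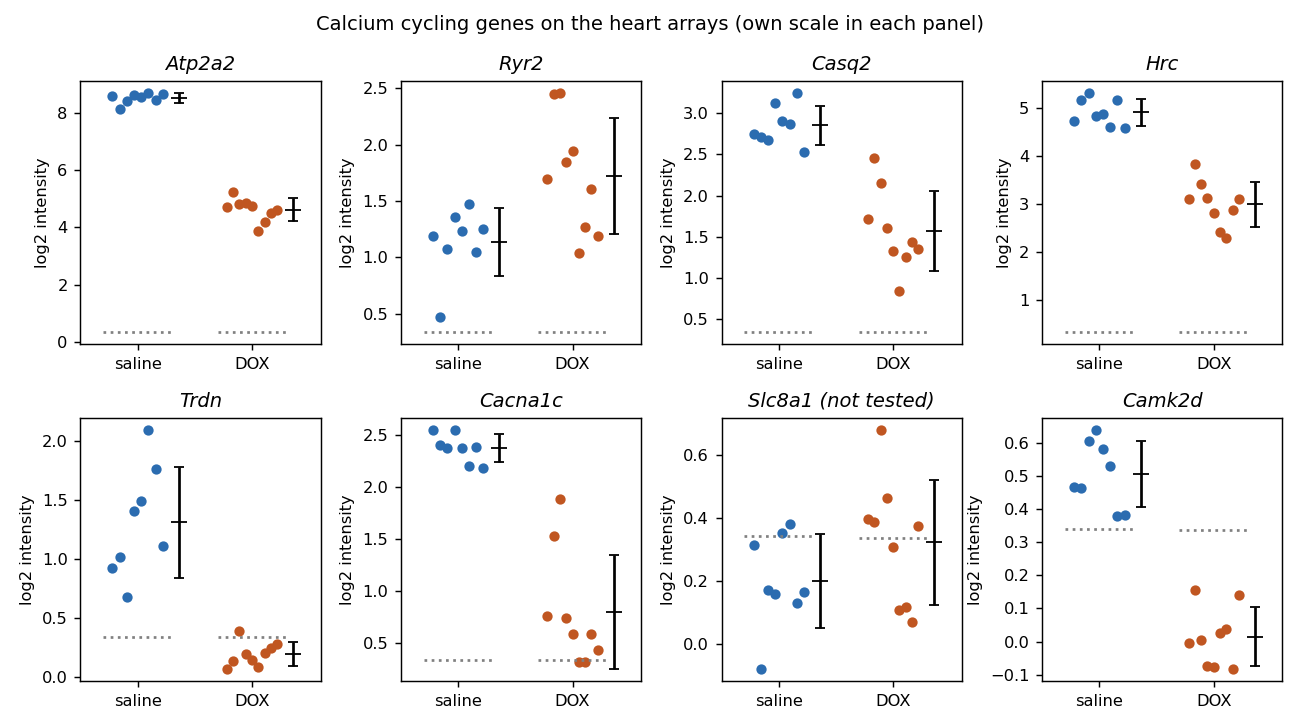
Log2 intensity of 8 calcium cycling genes on each heart array, saline (n = 8) and DOX (n = 9), 1 point per array with the mean and SD beside it; dotted lines show the upper end of the background range (95th percentile of the probes not expressed, median over the arrays of the group). Atp2a2, Casq2, Hrc, Trdn, Cacna1c and Camk2d do not overlap between the groups, and Ryr2 runs the other way with overlap.

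The pump of the sarcoplasmic reticulum showed the largest change. Atp2a2 (chr12:39733519-39782942 in GRCr8) read 8.14 to 8.68 on the saline hearts, with a median of 8.55, and 3.88 to 5.23 on the DOX hearts, with a median of 4.69. No DOX array came near a saline array, and the gap between the groups was wider than the spread within either. This was a log2 fold change of −3.90 with an SE of 0.143 (9 DOX against 8 saline arrays, limma, adjusted p = 1.64e-14), and only 0.888% of all genes had a lower one. On the saline arrays the probe ranked between 1 and 9 of the 22523 probes and lay at most 0.39 below the brightest of its array, at the top of the range that an array can show, and saturation was not tested. The annotation assigns this probe to a transcript record of the non-coding class for Atp2a2, and which transcripts of the gene it reads was not tested.

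The release channel did not follow the pump. Ryr2 (chr17:63081527-63667141) read 0.47 to 1.47 on the saline hearts, with a median of 1.21, and 1.04 to 2.46 on the DOX hearts, with a median of 1.70. Its groups overlapped, with 6 of the 9 DOX arrays above all saline arrays. The log2 fold change of 0.58 ± 0.193 (SE, n = 9 and 8, adjusted p = 0.0092 by limma) stayed under the 2-fold limit. Relative to the median change of all genes it was 1.53, and 97.4% of all genes had a lower log2 fold change. With p-values set against the probes not expressed, the adjusted p was 0.306.

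Ryr2 was the only calcium cycling gene with several probes, and they did not run together. The second probe read 0.75 to 1.63 on saline and 0.57 to 1.99 on DOX hearts, a log2 fold change of −0.04 ± 0.185 (SE, adjusted p = 0.878 over all 22523 probes by limma, of which 20.1% were called in either direction). The third read 0.19 to 0.67 and 0.45 to 1.99, a log2 fold change of 0.63 ± 0.201 (adjusted p = 0.0127). The fourth, below the expression limit, read 0.00 to 0.35 and 0.07 to 0.54, a log2 fold change of 0.07 ± 0.066 (adjusted p = 0.391). None of the 4 probes was called, 2 had an adjusted p under 0.05 with higher values on the DOX arrays, and none showed the decrease of the other genes. The mean of the 4 probes gave 0.31 ± 0.153 (adjusted p = 0.0647 over the genes tested). On all 4 probes the DOX arrays 2 and 3 were the 2 brightest DOX arrays.

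**Figure D2:**
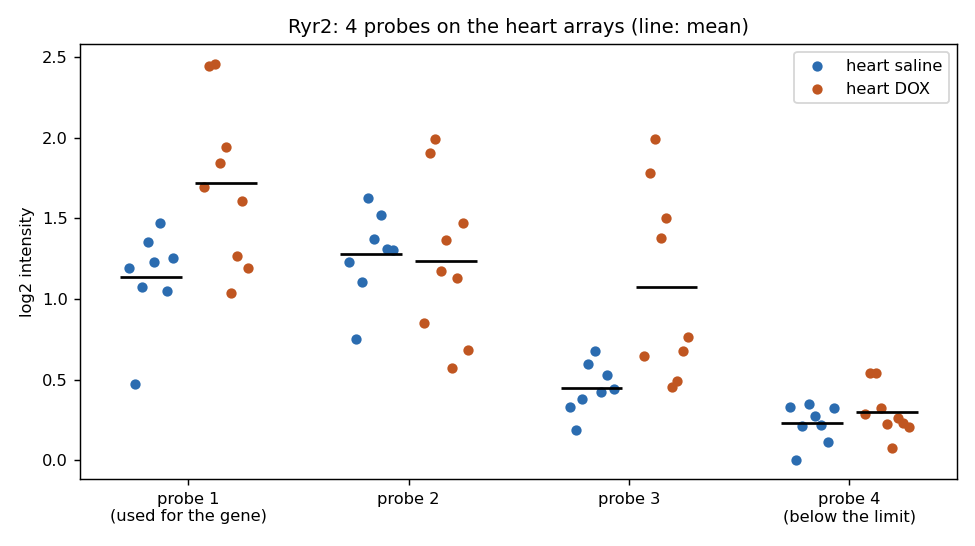
Log2 intensity of the 4 Ryr2 probes on each heart array, saline (n = 8) and DOX (n = 9), with lines for the group means. Probes 1 and 3 have log2 fold changes of 0.58 and 0.63, probes 2 and 4 of −0.04 and 0.07.

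Hrc, Casq2 and Trdn, whose proteins lie in the calcium store or at its junction, were all lower on this scale, and none of the 3 was called after centring on the expressed genes or quantile normalization. Hrc, the histidine-rich calcium-binding protein (chr1:104949750-104953475), read 4.58 to 5.30 on the saline hearts (median 4.85) and 2.29 to 3.82 on the DOX hearts (median 3.10). Its log2 fold change was −1.91 ± 0.177 (SE, n = 9 and 8, adjusted p = 7.32e-09 by limma). Casq2, cardiac calsequestrin (chr2:192214556-192270821), read 2.53 to 3.25 (median 2.81) and 0.84 to 2.46 (median 1.43), a log2 fold change of −1.28 ± 0.179 (adjusted p = 1.97e-06). The highest Casq2 value of a DOX heart, on array 2, lay just under the lowest of a saline heart. Trdn, the junctional anchor triadin (chr1:25774765-26230069), read 0.68 to 2.10 (median 1.26) and 0.07 to 0.39 (median 0.19), a log2 fold change of −1.12 ± 0.151 (adjusted p = 1.31e-06). Only 1 of 9 DOX arrays read Trdn above the background range, so that a larger decrease could not have been seen. Trdn passed the expression filter only through the saline hearts, which built in the direction, and its call is not read as a result.

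At the surface membrane, the channel and the exchanger differed in what could be read. Cacna1c, the pore subunit of the L-type calcium channel (chr4:153431169-154051932), read 2.18 to 2.55 on the saline hearts (median 2.38) and 0.32 to 1.88 on the DOX hearts (median 0.59). The log2 fold change was −1.58 ± 0.185 (SE, n = 9 and 8, adjusted p = 1.94e-07 by limma). DOX arrays 2 and 3 lay apart from the rest at 1.53 and 1.88, with the other 7 between 0.32 and 0.76. Slc8a1, the sodium-calcium exchanger (chr6:18975498-19299704), averaged 0.049 over all arrays and failed the expression filter. It read −0.08 to 0.38 on saline and 0.07 to 0.68 on DOX hearts, and 0 of 8 and 4 of 9 arrays lay above the background range. In the fit over all probes its log2 fold change was 0.12 ± 0.082 (adjusted p = 0.219), and a change of the exchanger was not detectable by this probe.

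The kinase Camk2d (chr2:217698324-217961898) read 0.38 to 0.64 on the saline hearts (median 0.50) and −0.08 to 0.16 on the DOX hearts (median 0.00). All 8 saline arrays lay above the background range and 0 of 9 DOX arrays did. Camk2d passed the expression filter through the saline hearts and the fine PBMC arrays, which favoured a lower value on DOX hearts. The log2 fold change of −0.49 ± 0.057 (SE, adjusted p = 1.42e-07 by limma) was under the 2-fold limit, and since the signal had so little room above background, a 2-fold decrease was beyond what this probe could show.

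The DOX hearts differed among themselves, and the same arrays were high or low for most of the calcium cycling genes. The highest DOX value of each of the 7 genes was on array 2 (4 genes) or array 3 (3 genes), and array 6 held the lowest value of 4 genes. The median of the expressed genes was also highest on arrays 2 and 3, at 0.701 and 0.700, and lowest on array 6, at 0.222. On the saline hearts the highest values were spread over 4 arrays.

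**Figure D3:**
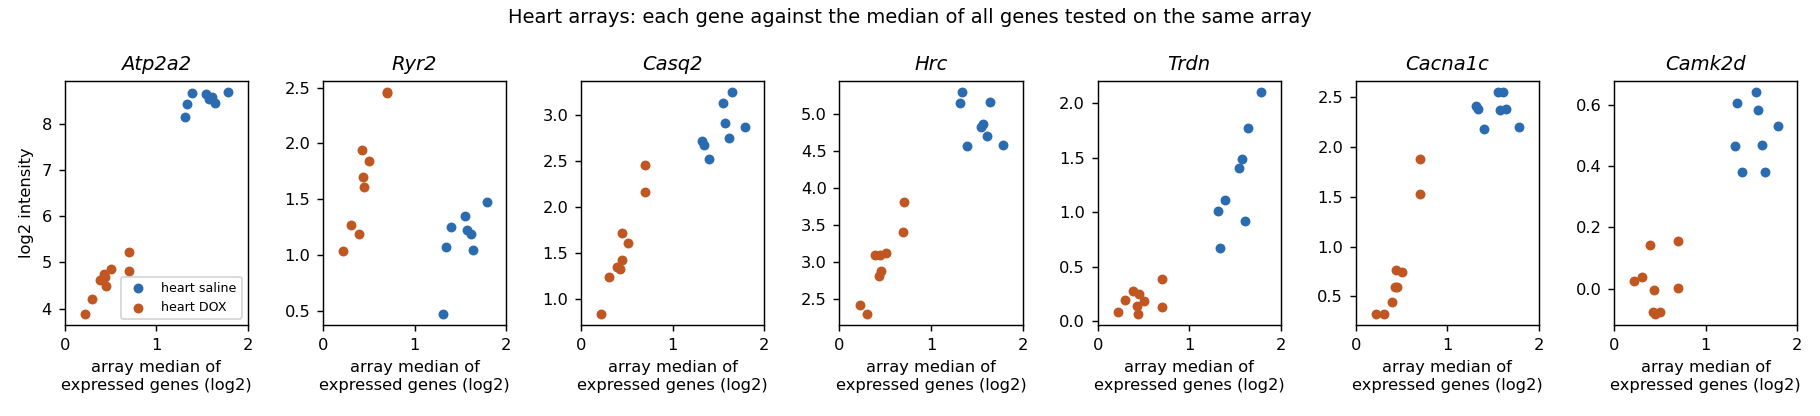
Log2 intensity of each of the 7 tested genes (vertical, own scale) against the median of all genes tested on the same heart array (horizontal, log2), 8 saline and 9 DOX arrays. The DOX arrays with medians near 0.70 carry the highest values, and for Ryr2 alone the DOX arrays reach above the saline arrays.

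The median gene had a log2 fold change of −0.94 on the DOX arrays, and the calls were repeated on other scales. Relative to the median change of all genes, the log2 fold change was −2.95 for Atp2a2, −0.96 for Hrc, −0.64 for Cacna1c, −0.34 for Casq2, −0.18 for Trdn, 0.45 for Camk2d and 1.53 for Ryr2. With each array centred on the median of the expressed genes, Atp2a2 was still called lower (−2.83 ± 0.103, adjusted p = 2.43e-15 by limma), Ryr2 was called higher (1.65 ± 0.138, adjusted p = 7.02e-10), and none of the other 5 was called. The array medians averaged 0.46 on DOX and 1.53 on saline hearts. This centring adds their difference to every gene, also to one that did not change on the main scale. Quantile normalization gave the same 2 calls, with −1.94 ± 0.179 for Atp2a2 (adjusted p = 1.54e-08) and 1.69 ± 0.116 for Ryr2 (adjusted p = 2.78e-10). Both Ryr2 calls rest on its first probe. The other Ryr2 probes, with −0.04, 0.63 and 0.07 on the main scale, were not fitted on these scales. There 15.5% of all genes were called lower and 6.63% higher, and with the centring 1224 of 6760 genes were called lower and 952 higher. Casq2 turned to 0.23 and Hrc was reduced to −0.09 under quantile normalization, and Camk2d turned to 0.57 with the centring on expressed genes. The lower call of Atp2a2 was thus the one call shared by the 3 scales.

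**Figure D4:**
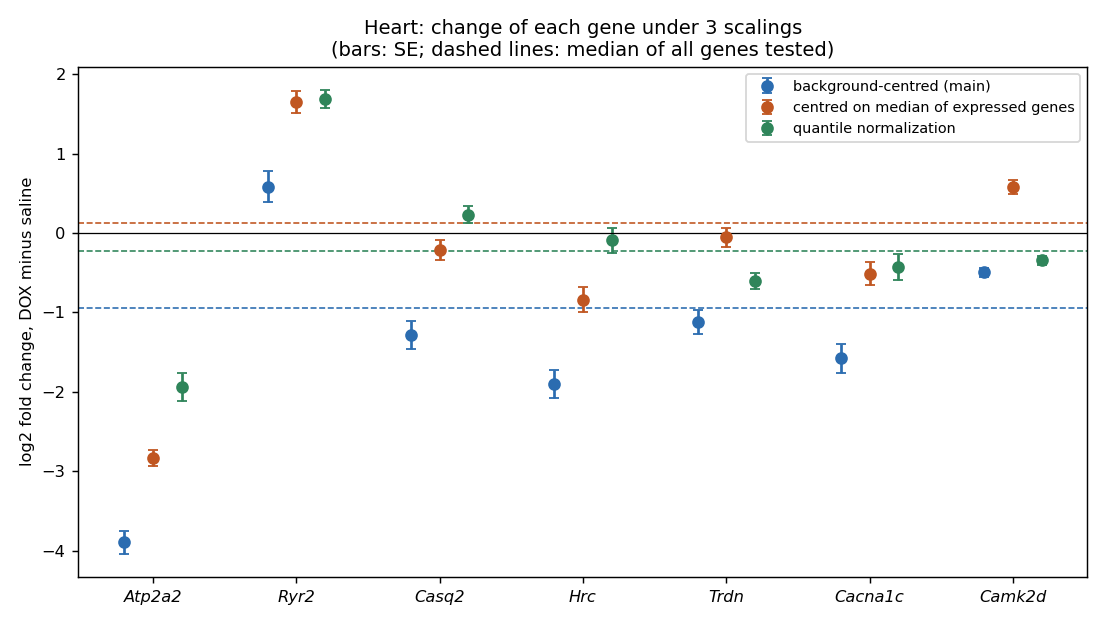
Log2 fold change (DOX minus saline, ± SE) of the 7 tested genes in the heart under 3 scalings of the arrays, with dashed lines for the median of all genes tested, at −0.94 on the main scale, 0.12 centred on expressed genes and −0.23 after quantile normalization. Atp2a2 lies below and Ryr2 above the median on every scale.

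Of 74 further genes of calcium pumps, channels, buffers and their regulators, 57 had a probe and 34 passed the filter. In the heart 22 of the 34 were lower, 1 was higher and 11 were not called, with a median log2 fold change of −1.56, where 48.2% of all genes were lower and 1.36% higher with a median of −0.94. In both tissues these further genes were read on the main scale alone, and whether their calls hold on the other scales was not tested. Hspb6, a small heat shock protein of muscle, fell from a range of 7.51 to 7.92 to one of 1.5 to 3.59 (log2 fold change −4.92 ± 0.254, SE, n = 9 and 8, adjusted p = 1.43e-12 by limma). Prkaca, the catalytic subunit of protein kinase A, fell by 4.15 ± 0.193, and Calr, a calcium-binding chaperone of the reticulum, by 3.22 ± 0.166 on the log2 scale. Vdac2, a channel of the outer mitochondrial membrane, fell by 3.2 ± 0.248, and Fkbp1a, which binds ryanodine receptors, by 3.18 ± 0.234. For these 5 genes no DOX array reached the saline range. Pde3a, a phosphodiesterase that breaks down cyclic AMP, rose from 0.14 to 0.33 on saline to 0.46 to 2.81 on DOX hearts (log2 fold change 1.52 ± 0.255, adjusted p = 1.93e-05), with no overlap.

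On the saline arrays as labelled, 6 of the 7 were called higher in the heart than in the PBMC, where 39.1% of all genes were, and on the control sides of the study's list again 6 of 7, where 16% were. Hrc, Ryr2, Trdn, Casq2 and Cacna1c lay at background on nearly all PBMC arrays and passed the expression filter through the heart, so that their higher value there was fixed by the filter and nothing is read from these counts. The log2 difference was 8.25 ± 0.136 (SE, n = 8 and 8 arrays) for Atp2a2, 4.94 ± 0.111 for Hrc, 2.75 ± 0.099 for Casq2, 2.31 ± 0.099 for Cacna1c, 1.30 ± 0.165 for Trdn and 1.09 ± 0.113 for Ryr2 (0.74, not called, as the mean of its 4 probes), with adjusted p from 3.29e-18 to 2.47e-06 by limma. On the PBMC saline arrays these genes lay above the background range on 0 or 1 of 8 arrays, and Atp2a2 on 3, and the Atp2a2 signal of the heart lay at the top of the range of the array, so that the true differences may be larger. With the control sides, that of Atp2a2 was 5.81 ± 0.18 and the other 5 lay between 1.11 and 4.91. Ryr2 and Trdn lost their calls as labelled with the centring on expressed genes (0.16 and 0.36) and after quantile normalization (0.75 and 0.88). Camk2d differed by 0.39 ± 0.064 as labelled, under the 2-fold limit, and by −0.07 ± 0.081 (adjusted p = 0.429) with the control sides.

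In the PBMC, only Atp2a2 and Camk2d lay above the background range on more than 2 arrays. Hrc, Ryr2 and Trdn lay above the background range on no PBMC array, Casq2 and Slc8a1 on 1 and Cacna1c on 2. Atp2a2 read −0.00 to 1.0 on the arrays labelled saline (median 0.14) and 0.08 to 3.47 on those labelled DOX (median 2.70). The arrays labelled DOX 2 to 9, from 1.94 upward, all lay above the arrays labelled saline, and DOX 1, at 0.08, lay within their range. By the labels Atp2a2 was higher after DOX, by 2.15 ± 0.36 on the log2 scale (SE, n = 9 and 8, adjusted p = 0.000128 by limma, or 0.0572 with p-values set against the probes not expressed), and it was the only one of the 7 called, where 44.5% of all genes were called higher and 0.769% lower. By the sides of the study's list it was lower, with −2.46 ± 0.206 (adjusted p = 1.71e-08), again the only call, where 54.4% of all genes were called lower and 0.473% higher. With the centring on expressed genes it was 1.01 by the labels and −1.12 by the sides, and after quantile normalization 1.26 and −1.47, all still called. The direction of the Atp2a2 difference in blood cells therefore rests on which grouping is right. The split of Atp2a2 is also that of the coarse and the fine arrays, and the precision and the sides of the study's list cannot be told apart. The T cell markers averaged 2.08 to 5.15 on the coarse and 5.37 to 5.98 on the fine arrays, and the platelet markers 2.49 to 6.39 and 4.31 to 5.97, and their part in the Atp2a2 difference was not tested. Among the coarse arrays only DOX 1 is labelled DOX, and its 0.08 lay within the −0.00 to 1.0 of the arrays labelled saline, which with 1 array, itself apart from the others, is no test of a DOX effect.

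Camk2d ran with Atp2a2 in the PBMC at a lower level. It read 0.01 to 0.22 on the coarse arrays and 0.37 to 0.83 on the fine ones, with no overlap between these sides, as held for 38.4% of all genes. Camk2d passed the expression filter partly through the fine arrays, which favoured this direction. The log2 fold change was −0.47 ± 0.07 (SE, adjusted p = 1.04e-05 by limma) by the sides and 0.40 ± 0.097 (adjusted p = 0.00197) by the labels, both under the 2-fold limit. Trdn differed by 0.20 ± 0.06 (adjusted p = 0.00541) by the sides while lying within background on all 17 arrays, and is not read as expression.

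**Figure D5:**
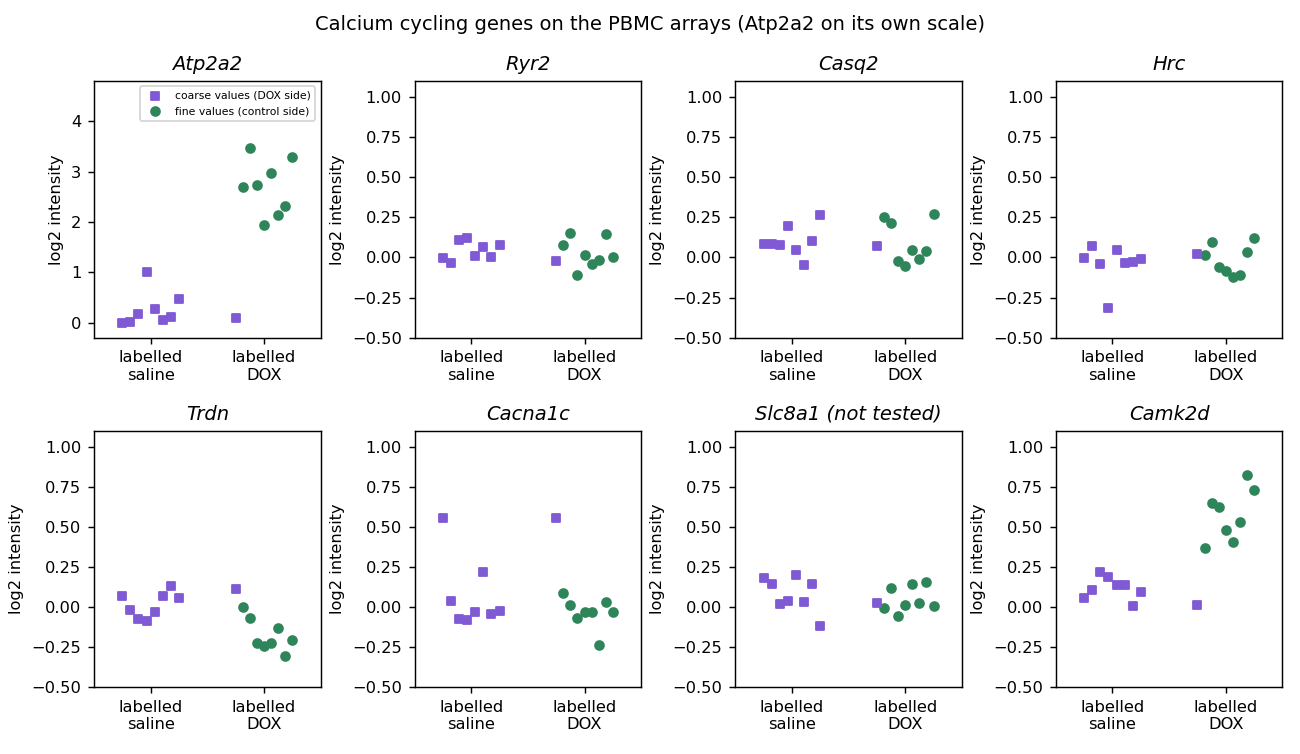
Log2 intensity of 8 calcium cycling genes on each PBMC array by label (8 saline, 9 DOX), with squares for arrays of coarse values (the DOX side of the study's list) and circles for arrays of fine values (its control side). Atp2a2 and Camk2d separate the squares from the circles, and the other 6 genes stay mostly near 0.

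Of the 34 further genes of calcium handling, 21 were lower on the DOX side of the study's list and none higher, where 54.4% and 0.473% of all genes were. By the labels 18 were higher and none lower (limma), where 44.5% and 0.769% of all genes were. At an unadjusted p under 0.05 the counts were 29 lower and 0 higher by the sides, and 22 higher and 0 lower by the labels. Of all 6760 genes, 5479 passed this limit in either direction by the sides and 4996 by the labels. The largest differences by the sides were in Pde4d, another phosphodiesterase of cyclic AMP (−3.98 ± 0.155), in Atp2a3, the SERCA3 pump of blood and epithelial cells (−3.09 ± 0.474), and in Prkaca (−2.97 ± 0.347), as log2 fold changes ± SE with n = 9 and 8 arrays. By the labels Pde4d differed by 3.67 ± 0.41, Prkaca by 2.37 ± 0.561 and Ppp1cc, a catalytic subunit of protein phosphatase 1, by 2.27 ± 0.404. Atp2a3 read 5.64 to 6.91 on the control side, whereas Atp2a2 read 1.94 to 3.47 there, each on the scale of its own probe.

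Ordered by level, Atp2a2 stood at 8.51 ± 0.177 (SD, n = 8) in saline hearts, 4.62 ± 0.392 (n = 9) in DOX hearts, 2.70 ± 0.542 (n = 8) on the fine PBMC arrays and 0.24 ± 0.322 (n = 9) on the coarse ones, with no overlap between neighbours. Hrc, Casq2 and Cacna1c had the order saline heart, DOX heart and PBMC, in which Cacna1c on DOX hearts (0.32 to 1.88) overlapped the PBMC (−0.23 to 0.56). Ryr2 had the order DOX heart, saline heart and PBMC, of which the first pair overlapped. Trdn and Camk2d on DOX hearts overlapped the PBMC range.

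The difference between the DOX effects, PBMC minus heart, was called for 6 of the 7 genes upward and 1 downward as labelled (adjusted p under 0.05), where 87.9% of all genes went upward and 3.17% downward. By the sides of the study's list it was called for 5 upward and 1 downward, against 23.1% and 37.4% of all genes. For Hrc, Cacna1c, Casq2, Trdn and Ryr2 the PBMC arrays lay mostly within background, so that their differences restate the change in the heart. Nothing is read from these counts. For Atp2a2, the one called gene of both tissues, the difference between the DOX effects was 1.44 ± 0.256 (SE, adjusted p = 1.35e-05 by limma) by the sides and 6.05 ± 0.394 (adjusted p = 7.1e-15) as labelled. After quantile normalization it was 0.28 ± 0.255 (adjusted p = 0.35) by the sides and 2.79 ± 0.306 as labelled. On the coarse PBMC arrays Atp2a2 lay above the background range on 3 of 9, so that its decrease by the sides could not have been read in full, and the sizes of the decrease in the tissues cannot be compared.

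The genes with profiles most like the mean of the 7 calcium cycling genes over the 34 arrays were Ndrg4, Ldhd, Hspb8 and Etfdh (Pearson's r = 0.989 each) and Fitm2 (0.988), where the median r of all genes was 0.068. The 34 points share the split between the tissues. Over the 17 heart arrays after subtraction of the group means, the closest were Elavl1 (0.972), Samd4b (0.966), Rgma (0.947), Tgfbr3 (0.944) and Tlk2 (0.943), against a median of 0.518, and these arrays share the differences in overall brightness described above.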

How the data were processed

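Total RNA of 17 heart and 17 PBMC samples was amplified and hybridized by the authors to Illumina RatRef-12 BeadChips, and intensities were exported without background subtraction. What the authors deposited are log2 intensities, centred by them on each array's median. Some rats had repeat arrays, and the sources used here do not say how these were combined. Tables of raw intensities with 34 columns of values match no sample label and were not used, so that no detection p-values were at hand. Arrays carry no depth, and their number limits the precision.

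As in the study, each array was set relative to the median of its probes not expressed. The limit between expressed and not expressed, an average of 0.1524 over the 34 arrays, was read from the expression column of the study's list of changed genes. By it 9386 of 22523 probes were expressed. Of all probes 13793 had 1 gene symbol, 8730 had none and none had several, and 13752 IDs matched the RefSeq gene table (GRCr8). The probe with the highest average stood for each of 13337 genes, and 6760 expressed genes were tested. Columns of that list with the authors' comparisons hold fold changes and FDR values. The PBMC grouping behind them was found by comparing its estimates with group differences recomputed under each grouping, and none of its values is reported.

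Linear models without a block were fitted in R 4.3.3 using limma 3.58.1 and moderated by eBayes, and p-values were adjusted over the 6760 genes by the method of Benjamini and Hochberg. Calls needed an adjusted p under 0.05 and a change over 2-fold, and for the difference of the DOX effects between tissues an adjusted p under 0.05, in a fit with 4 group means. The code was tested on simulated data. Array measures were compared by exact permutation over all 24310 splits. The background range of an array is the 95th percentile of its probes not expressed. The text names the 9 calcium cycling genes with all their probes, of the further 74 genes of calcium handling the 5 (heart) or 3 (PBMC) with the largest called change and any called against the majority, and the 5 genes most like the mean profile. Markers of cardiomyocytes, endothelial cells, fibroblasts, smooth muscle, T cells, B cells, monocytes, leukocytes, platelets and red cells were read as averages per array. Tables and figures were made in Python 3.11.15 (pandas 2.3.3, numpy 2.4.6, matplotlib 3.10.9, scipy 1.17.1).

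The study's methods state that the heart and PBMC samples of a rat were numbered to match. Whether equal labels mark 1 rat is unsure, since the sides of the study's list disagree with 16 of 17 PBMC labels. Same-numbered arrays deviated together (correlation over 0.1) in 1 of 8 saline and 3 of 9 DOX pairs, and the number as a block changed no call of the genes followed. Between saline and DOX, equal numbers mark different rats. The genes, lists and alternatives were chosen with earlier results of these data known. Alternatives were other scalings, filters, probe rules, weights and p-values, and each array left out in turn. Precision as a block and the fit over all probes were added after seeing the data.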

Additional observations from a re-analysis of the deposited data

Results flagged for a closer look

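Of 32 sets of arrays (8 genes in 4 groups) 6 held an array far from the rest, where chance flags about 1 in 20. Atp2a2 read 0.083 on the PBMC array labelled DOX 1, with the next at 1.94, and 1.0 on that labelled saline 4, with the next at 0.47. Cacna1c read 0.56 on PBMC DOX 1 and 0.56 on PBMC saline 1, with the next at 0.09 and 0.22. Hrc read −0.31 on PBMC saline 4, with the next at −0.04, both within background. Ryr2 read 0.47 on heart saline 2, with the next at 1.05, and without this array its log2 fold change in the heart was 0.49.

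The DOX effect differed between the tissues for 13 of the 14 differences tested (limma, log2, PBMC minus heart ± SE). These are the same 7 genes under both PBMC groupings and are not separate tests. Of all genes, 87.9% were called upward and 3.17% downward as labelled, and 23.1% and 37.4% by the sides. As labelled, the difference was 6.05 ± 0.394 for Atp2a2, 1.93 ± 0.199 for Hrc, 1.54 ± 0.225 for Cacna1c, 1.27 ± 0.201 for Casq2, 0.96 ± 0.175 for Trdn, 0.89 ± 0.115 for Camk2d and −0.61 ± 0.213 for Ryr2, with adjusted p from 7.1e-15 to 0.00883. By the sides of the study's list, it was 1.44 ± 0.256 for Atp2a2, 1.89 ± 0.196 for Hrc, 1.74 ± 0.219 for Cacna1c, 1.29 ± 0.198 for Casq2, 1.32 ± 0.169 for Trdn and −0.58 ± 0.21 for Ryr2, with adjusted p from 6.38e-10 to 0.0185. Camk2d, at 0.02 ± 0.091 (adjusted p = 0.846), was not called. For Hrc, Cacna1c, Casq2, Trdn and Ryr2 the PBMC arrays lay mostly within background, where no change can be read, so that their differences restate the change in the heart.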

How the results depend on the processing

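Changing the scale moved these results most. With arrays centred on the median of expressed genes, 2176 of 6760 genes were called in the heart, 952 higher and 1224 lower. Of the calcium cycling genes 1 was higher and 1 lower there. By the PBMC labels 1758 genes were called, 670 higher and 1088 lower, with 5 of the 7 lower (Hrc −1.11). By the sides of the study's list 1570 genes were higher and 915 lower, with 5 of the 7 higher (Hrc 1.32). These 5 lay at background. The difference of the DOX effects then had 1 gene higher and 4 lower as labelled, with Casq2 at −0.93, Cacna1c −0.66, Camk2d −1.31, Hrc −0.27 and Trdn −1.24, and 0 lower by the sides. Of all genes, 2255 were higher and 2996 lower as labelled, and 2404 and 1991 by the sides. Quantile normalization gave 1497 heart genes, 448 higher and 1049 lower, with 1 of the 7 higher and 1 lower (Casq2 0.23). It gave 797 genes by the PBMC labels and 1008 by the sides. The difference of effects had 3 of the 7 higher and 2 lower as labelled (Casq2 −0.32), where 3144 and 1496 of all genes were. By the sides 2 of the 7 were higher (Casq2 −0.15), where 2234 of all genes were. The cause was not tested.

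P-values set against the probes not expressed left 382 genes by the PBMC labels, with 0 of the 7 higher, 1993 by the sides and 1391 between the tissues. Without a fold limit, 5822 heart genes were called, 415 of them higher, with 1 of the 7 higher. By the PBMC labels 4825 were called, 4736 of them higher, with 2 of the 7 higher, and between the tissues 4882. By the sides 92 genes were higher and 5320 lower, with 1 of the 7 higher and 2 lower. With the mean of all probes, 0 of the 7 had a lower difference of effects by either grouping, where 210 genes had one as labelled and 2532 by the sides. With precision as a block, chosen after seeing the data, 17 genes were called by the PBMC labels, 0 of the 7 higher, with Atp2a2 at −0.18, a value that rests on DOX 1 alone. Dropping the filter, array weights, the values as deposited and the PBMC without saline 6 and DOX 1 changed no call of the 7. A filter on the arrays compared changed none of the 17 results of these genes that it left. Genes that failed it in a comparison, among them most of the 7 in the PBMC, were not tested there.

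Leaving out each array in turn gave 3262 to 3398 genes in the heart, 2843 to 3614 by the PBMC labels, 3602 to 3902 by the sides and 2981 to 3227 between the tissues, and no call of the 7 changed. With the replicate number as a block, 3341, 3029, 3448 and 3046 genes were called, and no call of the 7 changed. Same-numbered saline and DOX arrays are different rats, whose deviations correlated at −0.14 to 0.15 in the heart and −0.42 to 0.78 in the PBMC. No paired analysis was possible for the difference of effects by the sides, because label and side disagree for 16 of 17 PBMC arrays. Signal over background limited Slc8a1, Camk2d and Trdn in the heart and every gene on the coarse PBMC arrays, where Atp2a2 lay above the background range on 3 of 9 and Camk2d on 0.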
